A study of Rattus norvegicus with 6 samples.

Results

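GABA-A receptor subunit genes were examined in the brains of newborn rats (Rattus norvegicus) as a set of 7 genes, Gabra2, Gabra3, Gabra4, Gabra5, Gabrb1, Gabrb2 and Gabrg1, taken by gene symbol from tables of 30498 Ensembl genes. All 7 were present, and 8 further subunit genes in the same tables served for comparison. The dams were either fed normally (control) or calorically restricted (CR), which models fetal growth restriction, and the pups were delivered by Caesarean section with the brain dissected at once. Poly(A) RNA of 3 libraries per group was sequenced, and strain, sex and litter are not given in the sources used here. Whether each library derives from a different pup is not stated. Both groups held libraries with and without reads of a Y-linked gene (given below), so the 3 libraries of a group did not all come from 1 pup. The p-values cover only the variation among these 6 libraries, which may be partly technical.

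GABA-A receptors are chloride channels opened by the transmitter GABA, and each channel is assembled around a central pore from subunits of several classes, most often alpha, beta and gamma. The alpha subunit largely sets where on the neuron the receptor sits and how it responds to benzodiazepines, the beta subunit helps to form the GABA site, and the gamma subunit is needed for clustering at synapses and for the benzodiazepine site. In the newborn brain the receptor often depolarises neurons because intracellular chloride is still high, and the subunits made at that age differ from those of the adult.

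Depth was 14030961 to 25345354 assigned reads in the control libraries and 22161522 to 25734737 in CR. All 6 libraries are labelled whole brain, but markers of caudal regions were near 0 in control. Summed over 9 midbrain markers, expression was 0.738 to 1.30 FPKM (fragments scaled to exon length and to library depth) in control and 30.7 to 39.6 FPKM in CR, and controls held 0 reads of both Pax7 and Pou4f2. For 9 hindbrain markers the sums were 0.341 to 0.366 FPKM in control against 15.5, 14.0 and 52.6 FPKM in CR replicates 1 to 3, with no control read for Hoxa2, Hoxb3 or Hoxb5, and CR replicate 3 stood apart. Dorsal telencephalic markers (10 genes) summed to 530 to 639 FPKM in control and 210 to 312 FPKM in CR. Reads of the Y-linked gene Eif2s3y were present in control replicate 3 and in CR replicates 1 and 3 and absent from the other three libraries. Regional make-up thus differed between the groups along with feeding, and the pair cannot be told apart in any difference below. In such bulk samples fewer cells of a type and less RNA per cell cannot be told apart either.

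Of the 7 subunit genes, 3 passed an adjusted p of 0.05 in limma as higher in CR, 4 did not pass and none passed as lower. Over all 15247 genes tested, 33.9% passed, 17.7% as higher and 16.2% as lower, so 3 of 7 higher is to be read against 17.7%. Gabrg1 rose most, followed by Gabra5 and Gabra3. The median log2 fold change of the 7 was 0.33, against 0.0096 over all genes tested. Fold changes on the log2 scale are CR minus control for FPKM + 1, which understates the change of genes at low levels. The 7 genes together summed to 112 ± 10.9 FPKM in control and to 144 ± 10.7 FPKM in CR (SD, n = 3 per group). Behind these values lay from 71 reads (Gabrb1 in control replicate 1) to 3226 reads (Gabra5 in CR replicate 3) per gene and library.

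**Figure D1:**
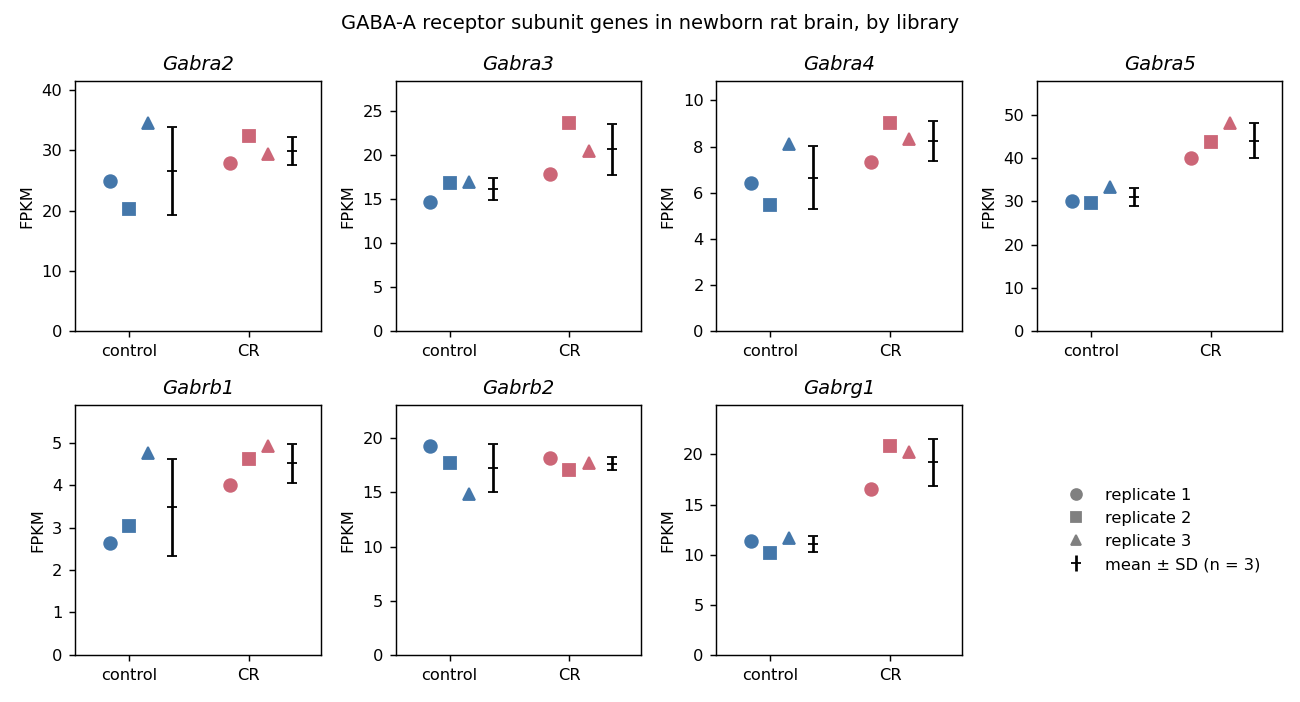
Expression (FPKM, linear axis from 0) of the 7 subunit genes in each library, with 3 control libraries in blue and 3 CR libraries in red, marker shape giving the replicate number and black bars the mean ± SD. In Gabrg1, Gabra5 and Gabra3 the 3 CR values lie above the 3 control values, whereas control replicate 3 lies within the CR range in Gabra4 and Gabrb1 and above it in Gabra2.

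Gabrg1 encodes a gamma subunit of limited distribution in the adult, found mainly in amygdala, hypothalamus and basal forebrain and also in glia, that gives receptors a lower affinity for classical benzodiazepines. The 3 control libraries, in replicate order, held 11.3, 10.2 and 11.6 FPKM of it, and the 3 CR libraries held 16.5, 20.8 and 20.3 FPKM. The lowest CR library was above the highest control library, as in 26.1% of all genes tested (24.3% lay apart in the opposite direction, 50.3% in either). The mean rose 1.74-fold, from 11.0 ± 0.770 to 19.2 ± 2.33 FPKM (log2 fold change 0.74, SE 0.0957, limma adjusted p = 0.00180). Without CR replicate 3 the log2 fold change was 0.70 (limma adjusted p = 0.0104). Among libraries without Y-linked reads Gabrg1 was at 11.3 and 10.2 FPKM in control and 20.8 FPKM in CR, and among those with them at 11.6 FPKM in control and 16.5 and 20.3 FPKM in CR. Astrocyte markers moved in the same direction: 7 of 8 passed as higher, beside 17.7% of all genes tested. Their sum was 85.7 to 119 FPKM in control and 167 to 194 FPKM in CR. Hypothalamic markers, with 8 of 9 tested genes higher (also beside 17.7%), summed to 8.49 to 11.2 FPKM in control and to 49.0 to 70.5 FPKM in CR. Ventral telencephalic markers went the other way, with 10 of 14 lower (16.2% of all genes tested) and 2 higher. Their sums were 194 to 233 FPKM in control and 151 to 173 FPKM in CR. The part of these marker groups in the Gabrg1 result was not tested.

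Gabra5 encodes the alpha subunit of extrasynaptic receptors that carry tonic inhibition, best known in the hippocampus, and it was the most abundant of the 7 per exon length. Its control values, in replicate order, were 30.0, 29.7 and 33.4 FPKM, and its CR values 40.0, 43.8 and 48.1 FPKM. Every CR library was above every control library, and the highest value fell in CR replicate 3. The mean rose 1.42-fold, from 31.0 ± 2.06 to 44.0 ± 4.06 FPKM (log2 fold change 0.49, SE 0.0776, limma adjusted p = 0.00353). Without CR replicate 3, the library with most hindbrain signal, the log2 fold change of Gabra5 was 0.42 (limma adjusted p = 0.0139). In the same comparison dorsal telencephalic markers, a region that includes the hippocampus, had 9 of 10 members lower (16.2% of all genes tested) and none higher. Their part in the Gabra5 result was not tested.

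Gabra3, on the X chromosome, encodes an alpha subunit of the fetal brain that in adults marks monoaminergic nuclei and the thalamic reticular nucleus. It was at 14.7, 16.9 and 16.9 FPKM in control and at 17.8, 23.7 and 20.5 FPKM in CR. The groups did not overlap, but CR replicate 1 was only slightly above the highest control value. The mean went from 16.2 ± 1.29 to 20.7 ± 2.94 FPKM, a 1.28-fold difference close to the threshold (log2 fold change 0.33, SE 0.105, limma adjusted p = 0.0446). Of 18 alternative fits it passed in 8, with adjusted p from 0.0187 to 0.185 in limma, and it did not pass without control replicate 1 (0.118), control replicate 2 (0.0696), control replicate 3 (0.0569), CR replicate 2 (0.127) or CR replicate 3 (0.108). With a covariate for Y-linked reads, chosen after the data were seen, the log2 fold change was 0.36 (limma adjusted p = 0.0507). Midbrain markers had 9 of 9 members higher, thalamic markers 4 of 4 and hindbrain markers 7 of 8 tested, beside 17.7% of all genes tested. The thalamic markers summed to 3.23 to 19.5 FPKM in control and 74.3 to 110 FPKM in CR. The part of these marker groups in the Gabra3 difference was not tested.

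The regions around the starts of these 3 genes are shown because they are the members that passed as higher, and they differ widely in base composition. Each window runs from 250 bases before to 50 after the RefSeq start on assembly GRCr8, 5′ to 3′ on the strand of the gene, so the start is base 251. Capitals mark a match, on either strand, to TATAAA, the GC box GGGCGG, the cyclic AMP response element TGACGTCA or the E-box CAGCTG, and no match overlaps another.
Gabra5 (chr1:117516557-117516856, minus strand): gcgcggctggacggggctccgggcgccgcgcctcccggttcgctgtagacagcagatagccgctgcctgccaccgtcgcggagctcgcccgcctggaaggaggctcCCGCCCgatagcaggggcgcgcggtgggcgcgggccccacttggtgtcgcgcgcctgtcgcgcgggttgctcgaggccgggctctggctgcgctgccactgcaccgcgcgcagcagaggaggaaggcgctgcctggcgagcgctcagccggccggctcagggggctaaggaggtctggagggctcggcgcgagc
Gabrg1 (chr14:37750042-37750341, plus strand): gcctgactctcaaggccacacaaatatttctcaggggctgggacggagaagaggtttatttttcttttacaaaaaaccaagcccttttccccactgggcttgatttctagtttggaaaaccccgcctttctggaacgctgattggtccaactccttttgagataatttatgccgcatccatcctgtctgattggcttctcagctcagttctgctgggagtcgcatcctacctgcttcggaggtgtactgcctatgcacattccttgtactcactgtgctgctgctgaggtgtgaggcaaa
Gabra3 (chrX:155543821-155544120, minus strand): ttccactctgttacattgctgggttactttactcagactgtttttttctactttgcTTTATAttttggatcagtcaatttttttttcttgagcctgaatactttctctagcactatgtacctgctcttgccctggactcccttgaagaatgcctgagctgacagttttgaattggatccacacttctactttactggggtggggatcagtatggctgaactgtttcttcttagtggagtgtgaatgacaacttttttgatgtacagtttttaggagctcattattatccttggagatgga
The Gabra5 window was 76.3% G + C with 42 CpG dinucleotides and held 1 GC box, at base 107. The Gabrg1 window was 48.7% G + C with 6 CpG and no match, and the Gabra3 window 39.3% with 0 CpG and 1 match to TATAAA, at base 57. Over 33469 windows of the same length the medians were 51.7% G + C and 7 CpG, and the motifs occurred in 33.1% (GGGCGG), 14.2% (TATAAA), 15.1% (CAGCTG) and 1.83% (TGACGTCA) of them. In all, 6 of the 7 members had a window, the exception being Gabra2. Among the members that did not pass, the window of Gabra4 was 70.7% G + C with 1 GC box, and those of Gabrb1 (49.3%) and Gabrb2 (44.0%) had no match. In these windows the 3 members that passed had none of the 4 motifs in common and differed in base composition. This grouping rests on the threshold: Gabra3 passed narrowly, and Gabrb1, which did not pass, had a like log2 fold change (0.33 for each). Whether promoter sequence bears on the changes was not tested.

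Gabra2, Gabra4 and Gabrb1, which lie beside Gabrg1 on chromosome 14, did not pass. Gabra2 encodes the alpha subunit found at synapses and at the axon initial segment of forebrain neurons, a main target for the calming action of benzodiazepines. It was at 24.9, 20.2 and 34.6 FPKM in control and at 27.9, 32.4 and 29.4 FPKM in CR (log2 fold change 0.20, SE 0.169, limma adjusted p = 0.404). The highest of the 6 values was in control replicate 3, so the CR range lay inside the control range. Gabra4 encodes an alpha subunit of extrasynaptic receptors of thalamus and dentate gyrus that often pairs with the delta subunit. It was at 6.42, 5.45 and 8.11 FPKM in control and at 7.31, 9.03 and 8.32 FPKM in CR (log2 fold change 0.28, SE 0.134, limma adjusted p = 0.147). Gabrb1, a beta subunit gene, was the least abundant of the 7, at 2.63, 3.03 and 4.76 FPKM in control and 4.01, 4.62 and 4.91 FPKM in CR (log2 fold change 0.33, SE 0.172, limma adjusted p = 0.179).

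In these 3 genes control replicate 3 was the highest control library and the groups overlapped because of it. Without control replicate 3 all 3 passed as higher in limma: Gabra2 with a log2 fold change of 0.40 (adjusted p = 0.0250), Gabra4 with 0.41 (0.0274) and Gabrb1 with 0.52 (0.0125). That raised the number of members called higher from 3 to 5, since Gabra3 no longer passed. Over all 15247 genes tested, 2692 were called higher without that library, against 2706 with all libraries. Control replicate 3 was also the highest control library for Gabra5, Gabrg1 and, by a small margin, Gabra3, making 6 of the 7 members. It was the control with Y-linked reads, and its markers of dorsal telencephalon summed to 530 FPKM against 630 and 639 FPKM in control replicates 1 and 2. Its thalamic markers summed to 19.5 FPKM, against 3.23 and 17.1 FPKM. Among libraries with Y-linked reads Gabra2 was at 34.6 FPKM in control and 27.9 and 29.4 FPKM in CR, the opposite order to those without them (24.9 and 20.2 FPKM in control, 32.4 FPKM in CR). The part of sex or region in this library's levels was not tested.

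Gabrb2 encodes a beta subunit that is widespread in the adult brain. It was at 19.2, 17.7 and 14.8 FPKM in control and at 18.2, 17.0 and 17.7 FPKM in CR. The CR values lay inside the control range, with means of 17.3 ± 2.23 and 17.7 ± 0.596 FPKM (log2 fold change 0.038, SE 0.0909, limma adjusted p = 0.778). Unlike the other 6 members it was lowest among the controls in replicate 3, and without that library its log2 fold change was -0.062 (limma adjusted p = 0.471).

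**Figure D2:**
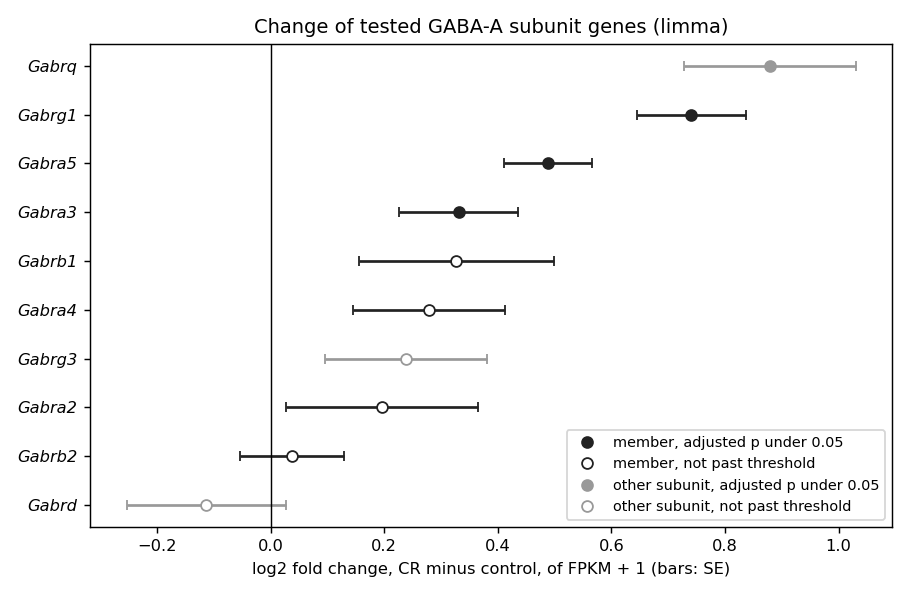
Log2 fold change (CR minus control, of FPKM + 1, bars SE) of 10 tested GABA-A subunit genes, with the 7 members in black, 3 other subunits in grey and filled points past an adjusted p of 0.05 in limma. Gabrq, Gabrg1, Gabra5 and Gabra3 are the filled points, and Gabrd lies below 0 without passing.

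Of the 8 further subunit genes 3 were tested, 1 passed as higher, against 17.7% of all genes tested, 2 did not pass and none passed as lower. The gene past the threshold was Gabrq, which encodes the theta subunit of hypothalamic and monoaminergic neurons. It was at 0.0739, 0.184 and 0.506 FPKM in control and at 1.29, 1.13 and 1.45 FPKM in CR, from 2 to 72 reads per library (log2 fold change 0.88, SE 0.151, limma adjusted p = 0.00476). The means differed 5.06-fold, and the log2 fold change of this low gene was 2.15 with a pseudocount of 0.1 and 2.56 with limma-voom on reads. All CR values of Gabrq were above all control values. Gabrg3, a gamma subunit gene, was at 1.56 ± 0.393 and 2.01 ± 0.279 FPKM (limma adjusted p = 0.233), and Gabrd, the delta subunit gene, at 0.677 ± 0.254 and 0.540 ± 0.0779 FPKM (limma adjusted p = 0.567). Both overlapped between the groups. Gabra6, the cerebellar granule cell subunit, had 0 to 5 reads per library, Gabrp 0 to 3, Gabrr1 1 to 13, Gabrr2 2 to 13 and Gabrr3 1 to 4, and these 5 were too low to be tested.

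The order of levels within the 7 members was read per exon length, as FPKM. In control the means ran from Gabra5 (31.0 FPKM) through Gabra2 (26.6), Gabrb2 (17.3), Gabra3 (16.2), Gabrg1 (11.0) and Gabra4 (6.66) to Gabrb1 (3.47 FPKM). Gabra5 and Gabra2 had overlapping ranges there, as had Gabrb2 and Gabra3, and the other neighbours did not overlap. In CR the order was Gabra5 (44.0 FPKM), Gabra2 (29.9), Gabra3 (20.7), Gabrg1 (19.2), Gabrb2 (17.7), Gabra4 (8.22) and Gabrb1 (4.51 FPKM). The ranges of Gabra3 and Gabrg1, and of Gabrg1 and Gabrb2, overlapped in CR, whereas Gabra5 was above Gabra2 in all CR libraries. Gabrb2 ranked above Gabra3 and Gabrg1 by mean in control and below both in CR, but not in every library. In CR replicate 1 Gabrb2 (18.2 FPKM) was above Gabra3 (17.8) and Gabrg1 (16.5 FPKM). In control replicate 3 Gabrb2 (14.8 FPKM) was below Gabra3 (16.9 FPKM).

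Subunit genes lie in clusters, and positions are given on mRatBN7.2 as in the deposited tables. On chromosome 14, Gabrb1 (ENSRNOG00000002327, minus strand) runs from 36080393 to 36548948, Gabra4 (ENSRNOG00000002336, plus) from 36590782 to 36665844, Gabra2 (ENSRNOG00000002349, plus) from 37097279 to 37228944 and Gabrg1 (ENSRNOG00000002360, plus) from 37396294 to 37635956. Gabra5 (ENSRNOG00000010803, minus) runs from 108268776 to 108380917 on chromosome 1. Gabrb2 (ENSRNOG00000003680, plus) runs from 26936551 to 27151251 on chromosome 10 near Gabra6, and Gabra3 (ENSRNOG00000056558, minus) from 150261607 to 150501559 on chromosome X near Gabrq. No exon of the 7 overlapped an exon of another annotated gene.

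Genes within 1 Mb of the members were read against the 17.7% higher and 16.2% lower of all genes tested. Of 14 tested flanking genes on chromosome 14, 2 passed as higher and 4 as lower, with a median log2 fold change of -0.072. Gnpda2, a glucosamine-6-phosphate deaminase gene beyond Gabrg1, fell from 12.8 ± 0.849 to 10.3 ± 0.136 FPKM (limma adjusted p = 0.0135), and Commd8, near Gabrb1, was at 54.1 FPKM in both groups (limma adjusted p = 0.992). On chromosome X 8 of 22 flanking genes passed as higher (17.7% of all genes) and none as lower (16.2%), with a median of 0.11. The largest of these was in Pnck, a calcium/calmodulin-dependent kinase gene, at 11.8 ± 3.77 and 27.0 ± 2.34 FPKM (limma adjusted p = 0.00459). On chromosome 10 1 of 5 was higher and 2 were lower, and on chromosome 1 the only tested flanking gene, Oca2, did not pass (limma adjusted p = 0.642).

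**Figure D3:**
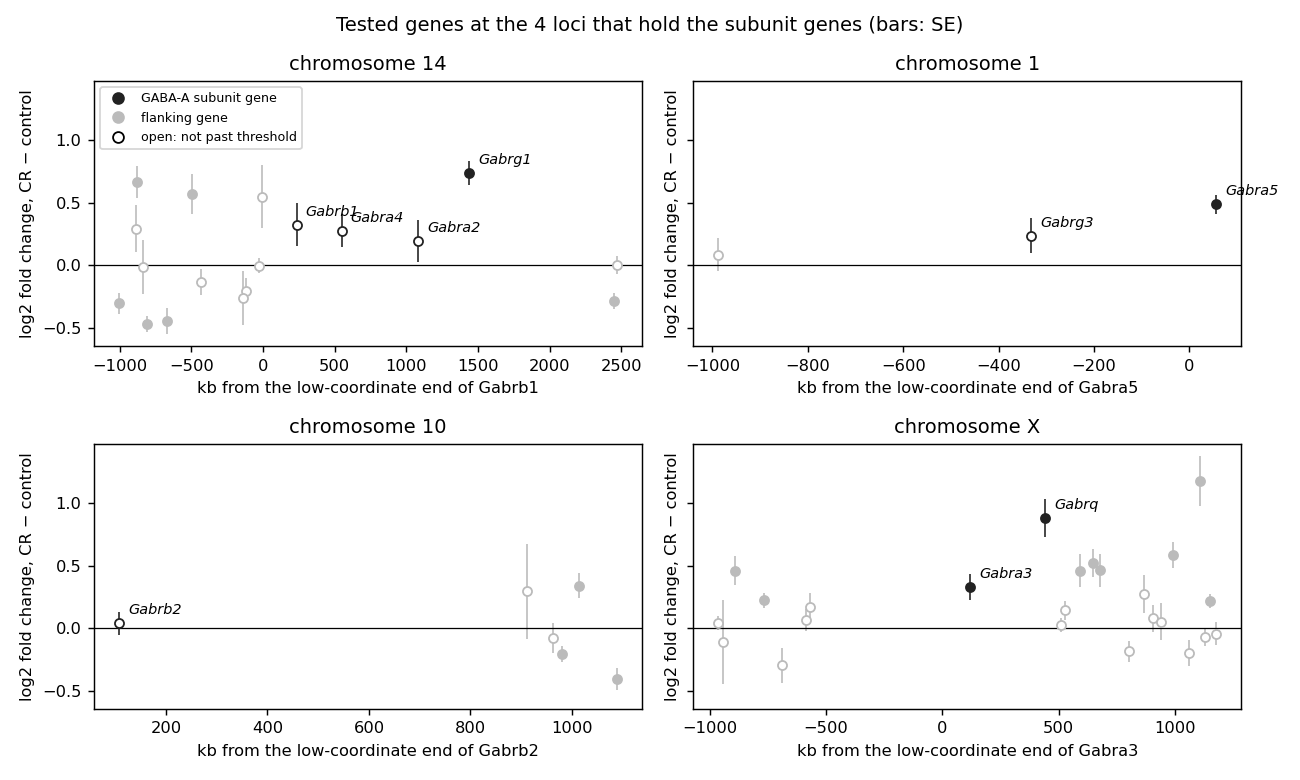
Log2 fold change (CR minus control, bars SE) of tested genes against distance of the gene middle in kb from the low-coordinate end of the member named on each axis, with subunit genes in black, flanking genes in grey and filled points past the limma threshold. On chromosome 14 Gabrg1 (0.74) is the filled black point, and flanking genes lie on both sides of 0.

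Other genes of GABA signalling were then counted from lists chosen with earlier results of these data known, beside 17.7% higher and 16.2% lower over all genes tested. Genes of GABA synthesis, transport and breakdown had 7 of 8 tested members higher (17.7% over all genes) and none lower, with Gad2 not past the threshold and a median log2 fold change of 0.68. Slc6a11, an astrocytic GABA transporter gene, rose most (13.1 ± 1.62 FPKM in control, 35.9 ± 5.34 in CR; log2 fold change 1.39, SE 0.119, limma adjusted p = 0.000533). Abat, the GABA transaminase gene, rose from 11.3 ± 0.130 to 22.5 ± 1.15 FPKM, and Slc6a13, a GABA transporter gene of meninges and barriers, from 6.92 ± 3.24 to 14.9 ± 1.62 FPKM. The Slc6a13 call was lost without any 1 of the 3 CR libraries (limma adjusted p from 0.0663 to 0.0806), and meningeal markers summed to 21.0 to 44.9 FPKM in control and 44.3 to 53.8 FPKM in CR. GABA-B receptor genes, which encode the metabotropic receptor for GABA, had 3 of 5 members higher, again beside 17.7%, and none lower. Gabbr1 rose from 108 ± 4.55 to 149 ± 4.81 FPKM, Gabbr2 from 16.5 ± 2.30 to 26.8 ± 2.22 FPKM and the auxiliary subunit gene Kctd8 from 2.69 ± 0.503 to 6.04 ± 1.33 FPKM.

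Among 28 tested genes of receptor assembly, trafficking and anchoring, 8 passed as higher and 5 as lower, the latter near the 16.2% of all genes and the former beside 17.7%, with a median log2 fold change of 0.024. Hap1, which encodes a trafficking adaptor abundant in hypothalamus, rose from 15.4 ± 8.94 to 76.8 ± 5.62 FPKM, the vesicle fusion ATPase gene Nsf from 31.2 ± 5.81 to 56.1 ± 4.52 FPKM and Iqsec3, a gene of inhibitory postsynapses, from 6.56 ± 0.495 to 11.6 ± 0.828 FPKM. Mdga1, a synaptic adhesion gene of cortical neurons, fell from 19.9 ± 2.47 to 13.3 ± 2.57 FPKM, Trak2, a kinesin adaptor gene, from 17.9 ± 0.479 to 13.2 ± 0.190 FPKM and Plcl1, which encodes a phospholipase C-like binding partner of the receptor, from 7.78 ± 0.506 to 5.97 ± 0.345 FPKM. The Mdga1 call was lost without control replicate 1 (limma adjusted p = 0.0639) and without control replicate 2 (0.0659), and the Plcl1 call without CR replicate 2 (0.0604). Gphn, the gephyrin scaffold gene, is listed under 2 Ensembl IDs with the same start and end that share 3607 exon bases, and these held 1 read in all 6 libraries together, so its level was not analysed here.

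Chloride carriers, which set the direction of the GABA current, had 2 higher and 1 lower among 8 tested members, near the 17.7% and 16.2% over all genes, and 5 did not pass. Slc12a5, which encodes the chloride exporter KCC2, was at 11.8, 9.46 and 16.9 FPKM in control and 29.2, 34.9 and 35.6 FPKM in CR (log2 fold change 1.35, SE 0.181, limma adjusted p = 0.00203). The importer gene Slc12a2, for NKCC1, was at 9.61 ± 0.604 and 8.97 ± 0.129 FPKM (limma adjusted p = 0.337). Clcn3, a chloride/proton exchanger gene of endosomes, rose from 21.8 ± 0.720 to 27.2 ± 1.13 FPKM. The kinase gene Wnk1 fell from 11.7 ± 0.438 to 10.2 ± 0.164 FPKM (limma adjusted p = 0.0455), a call that was lost without each of the 6 libraries in turn. Among genes for neurosteroid synthesis and endozepines, whose products act on GABA-A receptors, 2 of 6 were higher, beside 17.7% over all genes, and none lower. Dbi, the diazepam binding inhibitor gene, rose from 72.2 ± 5.82 to 130 ± 13.2 FPKM and Cyp11a1, the side-chain cleavage enzyme gene, from 0.939 ± 0.176 to 1.93 ± 0.0809 FPKM. Pan-neuronal markers summed to 2869 to 3190 FPKM in control and 2974 to 3018 FPKM in CR. Of these 8 markers 4 were higher and 1 lower, beside 17.7% and 16.2% over all genes. The part of the astrocyte, hypothalamic and dorsal telencephalic markers, whose levels are given above, in the changes of these lists was not tested.

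**Figure D4:**
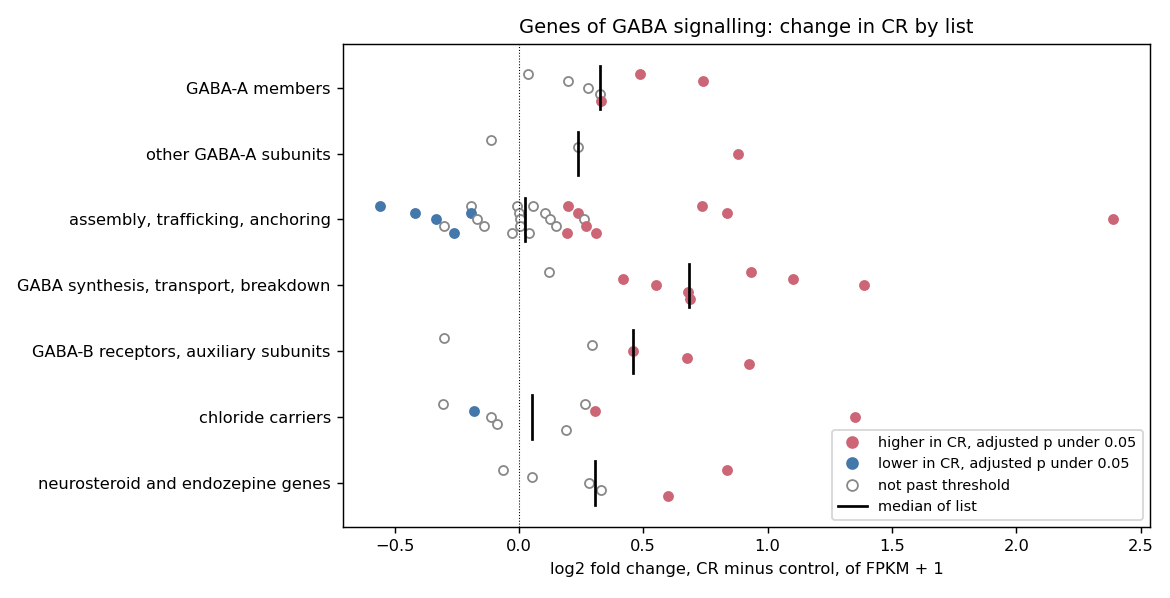
Log2 fold change (CR minus control, of FPKM + 1) of every tested gene in 7 lists of GABA signalling, 1 point per gene, red for higher and blue for lower past the limma threshold, open grey otherwise and a black bar at the list median. The median is highest for GABA synthesis, transport and breakdown (0.68), and genes of assembly, trafficking and anchoring lie on both sides of 0 around a median of 0.024.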

How the data were processed

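The authors deposited 1 table per library with FPKM and exon length for each Ensembl gene, per the file headers. The submitters' processing notes name STAR 2.7.10a, featureCounts 2.0.1, cutadapt 1.16, Trimmomatic 0.36 and Trim Galore 0.4.4, without order or settings, and the build mRatBN7.2. How strand was treated in counting is not stated in the labels. FPKM times exon length was a whole multiple (within 0.05) of 1 step in 100% of genes, which gave reads per gene and the depth of each library. Each pair of libraries from the same group gave a mean chi-square per gene of 6.63 or more, where random sampling of reads alone gives 1. Sequencing 1 library again would thus not give such values by sampling alone. The values cannot separate different pups from separate RNA preparations of 1 pup, since either could exceed 1. The 15247 genes averaging 0.5 FPKM or more were fitted with limma 3.58.1 in R 4.3.3 to log2(FPKM + 1), with group as the only term and a mean-variance trend. All tests were two-sided, with Benjamini-Hochberg adjustment over all genes tested. The fit was also run on simulated counts with known changes. Those counts held no regional differences, and their spread was not matched to these libraries. That run therefore does not gauge the calls given here.

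The members, lists and markers were chosen with earlier results of these data known. The named genes are the 7 members, the 8 further subunit genes, flanking genes, and from each further list up to 3 genes per direction with the largest change past the threshold. Commd8, Gnpda2, Pnck and Oca2 were picked among the flanking genes, and Slc12a2 outside the rule, after their values were seen. Gabre, Lhfpl3, Kctd12b, Acbd7, Hoxb2, Cldn5 and Flt1 had no symbol match and were not analysed here. Some further subunit genes, and subunit shares within a class, are not reported here. Where several IDs had 1 symbol, that with the highest mean was used. Alternatives were other pseudocounts, filters, scalings, variance models, limma-voom on reads, the replicate number as a block, leaving out each library and, added later, a covariate for Y-linked RNA.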

Additional observations from a re-analysis of the deposited data

How the results depend on the processing

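Gabrg1 and Gabra5 passed as higher in all 18 alternative fits, with log2 fold changes from 0.68 to 0.84 and from 0.42 to 0.55. No member was called lower in any of them. Leaving out 1 library at a time gave 2 to 5 members higher. Over all 15247 genes tested these fits called 1695 to 2692 higher and 1548 to 2345 lower, against 2706 and 2467 with all libraries. Log2 fold changes in them were 0.024 to 0.40 for Gabra2, 0.23 to 0.43 for Gabra3, 0.16 to 0.41 for Gabra4, 0.19 to 0.52 for Gabrb1 and -0.062 to 0.12 for Gabrb2. The calls gained and the reversal of Gabrb2 (-0.062) came without control replicate 3, and the cause was not tested. Gabra3 did not pass with no filter on low values (0.33, limma adjusted p = 0.185), with median-ratio size factors (0.30, 0.0706), with TPM (0.31, 0.0654), without the trend (0.33, 0.0680) or with the Y-linked covariate (0.36, 0.0507). The count of other subunits higher was 0 with a mean of at least 2 FPKM, a filter that removed Gabrq. Chloride carriers had 0 lower with the replicate block, 0 with the Y-linked covariate, 2 with limma-voom and 0 to 0 without 1 library, and neurosteroid and endozepine genes had 1 higher with a mean of at least 2 FPKM. Without 1 library 3 to 5 assembly and trafficking genes and 0 to 1 GABA-B genes were lower.

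What same-numbered libraries have in common is not stated. Their deviations correlated weakly, at 0.024, 0.020 and 0.045, against -0.043 to 0.017 for unlike numbers. Each library thus correlated best with its own number. The replicate block took the calls over all genes from 5173 to 4445 and left 3 members higher. Among tested subunits depth was lowest for Gabrq (2 to 72 reads) and Gabrd (13 to 40 reads), and among the 7 members for Gabrb1 (71 to 243 reads).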

Other observations

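For each member the 2 genes with the most similar profile were sought by Pearson correlation of log2(FPKM + 1) over the 6 libraries, among 11582 candidates with a mean of at least 1 FPKM. These values are descriptions, since the libraries share 2 groups and many genes differed between them. Gabrg1 was closest to Ly6h, which encodes a membrane protein that modulates nicotinic receptors (r = 0.999, 105 ± 3.67 FPKM in control and 139 ± 8.38 in CR), and to Pitpnm3 (r = 0.999, 1.99 ± 0.156 and 4.42 ± 0.680 FPKM). Gabra5 was closest to Wscd1 (r = 0.999, 15.8 ± 0.874 and 21.8 ± 1.92 FPKM) and Lgals8, a galectin gene (r = 0.999). At r of at least 0.9 there were 1800 candidates for Gabrg1 and 1512 for Gabra5, against 156 for Gabra2, 186 for Gabrb1 and 101 for Gabrb2.

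The genes nearest to the other members were Lrrc24 (r = 0.994) and Nop10 (r = 0.990) for Gabra3, and Plxnc1, a semaphorin receptor gene (r = 0.995), and Otof (r = 0.994) for Gabra4. Gabra2 was nearest to Phyhip (r = 0.990, 5.48 ± 1.49 and 6.27 ± 0.600 FPKM) and Ppp1r13b (r = 0.990). Gabrb1 was nearest to Cdipt (r = 0.989) and Pmvk, a gene of the mevalonate pathway (r = 0.982), and Gabrb2 to Sbno2 (r = 0.991) and Catsper2 (r = 0.983).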
